A study of Rattus norvegicus with 24 samples.

Results

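Blood mononuclear cells of healthy rats sampled at the 1-hour time point were set against those of healthy rats sampled before therapy began in the study. The members are 4 of the 24 arrays, taken by their titles: the 2 arrays of NORA at 1 hour and the 2 arrays of NORA at baseline (T0). NORA, called NOCIA in the study, are female Wistar rats without induced arthritis, and their age is not given in the sources used here. No therapy for these rats in this batch is described in the methods, so the hour marks the sampling time at which the treated arms were 1 hour into therapy. Like all animals of the study they were shaved, and they were killed under deep general anaesthesia when the blood was drawn, so each array is a separate rat and no rat was measured at both times. The sources used here do not say which anaesthetic the NORA rats received. At issue is which transcripts differ between the 2 sampling times where neither arthritis nor treatment was present.

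The other groups used below are 2 NORA arrays at 34 days and arrays of rats with collagen-induced arthritis (RA in the labels). RA rats were sampled at baseline, PLA rats 1 hour after a saline injection into the peritoneum, under ether, and ANE rats at 1 hour with isoflurane at sampling and no other therapy. The arms given needle stimulation (AP) and methotrexate (MTX) enter through the common estimate of the spread and the range of other arrays. All values are expression levels on the log2 scale after RMA, a method that corrects, normalizes and summarizes the probes of an Affymetrix array into 1 value per probe set. Differences are 1 hour minus baseline with the standard error (SE) that limma gives, and every group has n = 2 arrays. Called means a limma p that stayed under 0.05 after Benjamini-Hochberg adjustment over 20690 probe sets. That the samples hold white blood cells was visible in the defining transcripts, as Cd3g of T cells lay between 12.01 and 12.50 in the 4 arrays, Cd79b of B cells between 9.09 and 10.16 and Lyz2 of monocytes between 14.00 and 14.34. Transcripts of cells that a density gradient should reduce were also high, with haemoglobin Hbb between 14.80 and 14.86 and platelet factor Pf4 between 14.31 and 14.54.

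The 2 baseline arrays resembled each other more closely than the 2 arrays at 1 hour. The gap between both arrays of a pair had an SD over probe sets of 0.2296 at baseline and 0.4602 at 1 hour. At 1 hour, cytotoxic transcripts were high in replicate 1 and neutrophil and red cell transcripts in replicate 2, as given with those groups below. The baseline arrays also stood apart from the rest of the study. At 850 probe sets, 4.11% of those tested, they both lay above (530) or both below (320) the other 22 arrays. The same count was 71 (0.343%) for NORA at 1 hour and 2025 (9.79%) for NORA at 34 days, and it ran from 39 to 299 in the other groups.

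**Figure D1:**
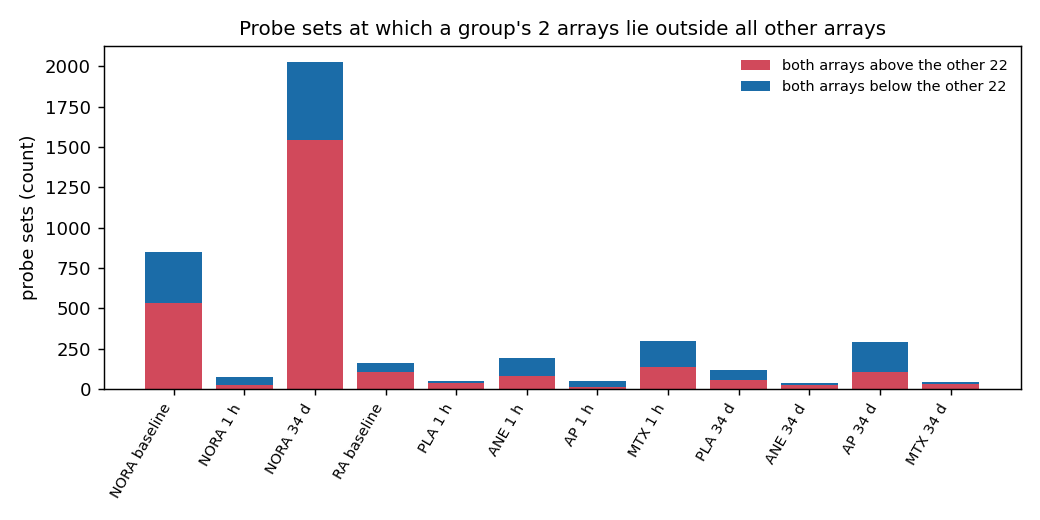
Number of probe sets (vertical axis) at which both arrays of a group (horizontal axis) lie above or both lie below the other 22 arrays. The healthy groups at baseline (850) and 34 days (2025) hold the highest counts, and the healthy group at 1 hour has 71.

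Adjusted for all probe sets, 1 transcript differed, which was 0.00483% of those tested. Sik1, salt-inducible kinase 1, was lower at 1 hour. At an unadjusted p under 0.05, 739 probe sets differed (3.57%), 371 of them higher (1.79%) and 368 lower (1.78%) at 1 hour. The thresholds of the study are an unadjusted p under 0.05 and a fold change over 2. Its methods set them on MAS5 values, another summary of the probes, and also drop probe sets with unreliable detection calls. Here those cut-offs alone, on RMA values, were passed by 145 probe sets (0.701%). Of these 81 were higher (0.391%) and 64 lower (0.309%), and 92 have 1 gene symbol. The count was 447 without 1-hour replicate 1. Of the 145, the baseline arrays lay outside all other 22 arrays at 43 (above at 19 and below at 24) and the 1-hour arrays at 2. The groups did not overlap at 36.5% of all probe sets, so that a gap between the pairs is common in these data.

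**Figure D2:**
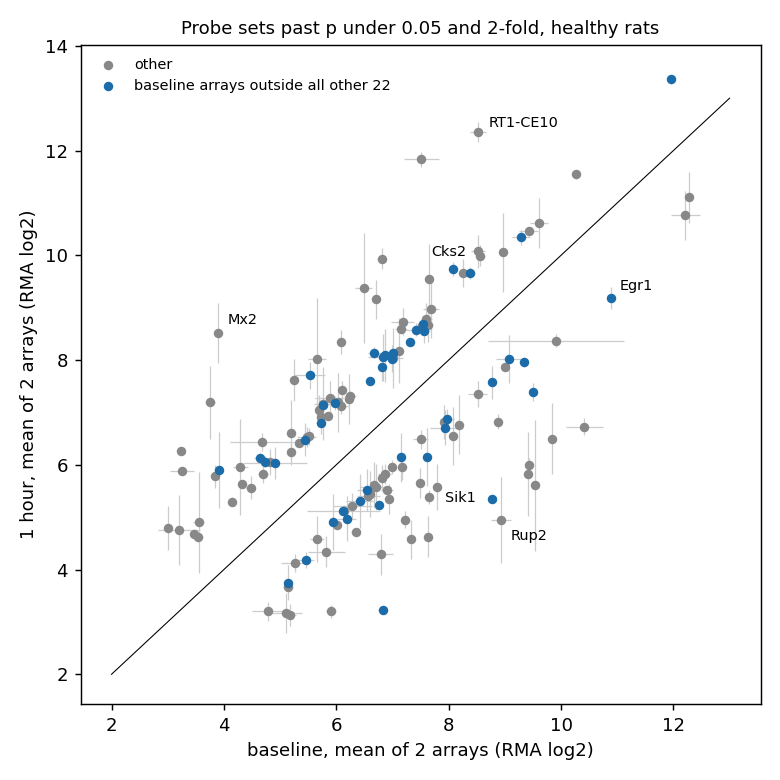
Mean level at baseline (horizontal axis) and at 1 hour (vertical axis), RMA log2, of the 145 probe sets past an unadjusted p of 0.05 and 2-fold. Bars span the 2 arrays of each group, the line marks equal levels, and blue points are the 43 probe sets whose baseline arrays lie outside all other 22 arrays.

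Sik1 encodes a kinase that phosphorylates the CRTC coactivators of the transcription factor CREB and so keeps them out of the nucleus. Its gene is itself switched on by cyclic AMP (cAMP) through CREB, which binds the cAMP response element (CRE), and the kinase is known as a brake in that loop. Its probe set 1368597_at read 8.74 and 8.81 in the baseline arrays and 5.27 and 5.43 in those at 1 hour. The pairs were far apart, and the 1-hour arrays lay among the other 20 arrays of the study, which ran from 4.91 to 5.61. Sik1 was thus lower at 1 hour by 3.42 ± 0.20 on this probe set (limma, adjusted p = 2.45e-07). As each array is a separate rat, a difference between rats cannot be told apart from a difference between times. The second and brighter probe set of the gene, 1368596_at, read 9.35 and 9.39 at baseline and 9.38 and 8.94 at 1 hour. These pairs overlapped, and the difference of -0.22 ± 0.32 was not called (adjusted p = 1). The probe sets of Sik1 therefore gave unlike readings of 1 gene, and the result holds for 1368597_at alone.

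**Figure D3:**
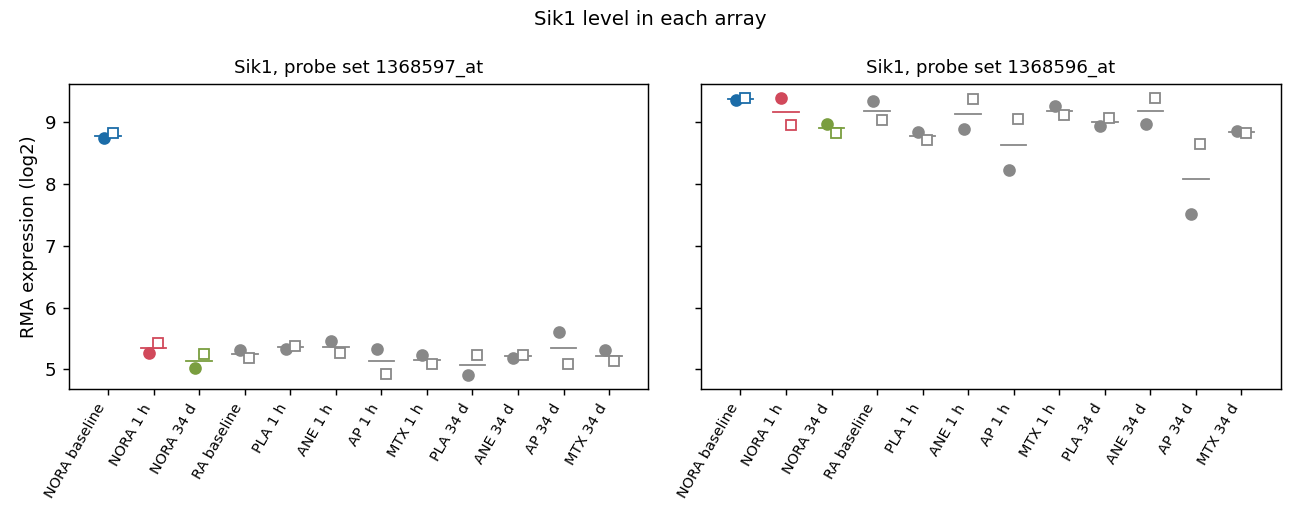
Level of the 2 Sik1 probe sets (vertical axis, RMA log2) by array and group (horizontal axis, 12 groups), with filled circles for replicate 1, open squares for replicate 2 and bars for the mean. On the left the healthy baseline arrays are at 8.74 and 8.81 with the other 22 at 4.91 to 5.61, and on the right all groups lie in 1 range.

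The promoter of Sik1 is shown because it is the gene that was called, and those of Crem because Crem, a repressor and activator of the same elements, is 1 of 2 genes, with Dusp1, whose windows hold the full element among the 18 genes of the cAMP list below that have a window. Each sequence is 250 bases before a RefSeq transcription start in the GRCr8 assembly, on the strand of the gene. The full CRE is TGACGTCA and its shorter core is TGACG, both searched on both strands, and every full CRE also holds the core. Sik1 lies on the minus strand of chromosome 20 (chr20:9958647-9958896) and its window holds the core at 2 places, in the reverse orientation, in capitals, the first 191 bases before the start. Crem lies on the plus strand of chromosome 17, and its windows chr17:58984547-58984796 and chr17:58985240-58985489 each hold 1 full CRE, in capitals, 56 and 35 bases before the start. The core was found for 12 of those 18 genes. Of all 33469 windows of this length, of which a gene may have several, 1.59% hold the full CRE and 18.2% the core. The letters describe the sequence and do not show binding.
Sik1: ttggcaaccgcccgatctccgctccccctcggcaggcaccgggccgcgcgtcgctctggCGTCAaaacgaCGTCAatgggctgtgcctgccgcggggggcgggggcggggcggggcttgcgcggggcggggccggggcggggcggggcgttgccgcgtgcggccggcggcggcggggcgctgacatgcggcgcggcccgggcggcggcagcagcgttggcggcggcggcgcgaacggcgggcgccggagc
Crem, first start: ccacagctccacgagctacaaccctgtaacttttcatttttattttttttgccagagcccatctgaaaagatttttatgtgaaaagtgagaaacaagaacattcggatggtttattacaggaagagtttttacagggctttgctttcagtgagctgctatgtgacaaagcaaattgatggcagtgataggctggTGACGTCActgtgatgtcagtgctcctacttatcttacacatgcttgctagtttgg
Crem, second start: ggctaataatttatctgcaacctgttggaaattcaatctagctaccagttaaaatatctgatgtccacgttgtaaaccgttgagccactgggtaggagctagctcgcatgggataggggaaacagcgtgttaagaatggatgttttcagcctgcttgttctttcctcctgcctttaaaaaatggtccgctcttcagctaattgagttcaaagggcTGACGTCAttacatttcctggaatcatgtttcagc

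The other genes of the cAMP pathway did not follow the called probe set of Sik1. Of 22 genes listed 21 were measured, each by its brightest probe set, and Sik1 is among them by its brighter probe set 1368596_at. The median difference was 0.13 against -0.02 over all 11057 genes. At an unadjusted p under 0.05, 2 were higher and 0 lower (9.52%, against 2.94% of all genes). None was called. Crem read 8.43 and 8.13 at baseline and 8.64 and 9.89 at 1 hour, a difference of 0.99 ± 0.40 (adjusted p = 1). The second was the kinase gene Pim1, with 6.85 and 7.18 against 7.46 and 8.61 (1.02 ± 0.39). On these probe sets of both genes the 1-hour arrays were above the baseline arrays, and replicate 2 was the higher of the pair at 1 hour. The pairs overlapped on 2 dimmer Crem probe sets and not on the remaining ones. These read 7.80 and 7.19 against 7.40 and 8.50 (1369738_s_at), and 7.52 and 7.55 against 7.50 and 8.16 (1396545_at). The related kinases Sik2 and Sik3 differed by -0.41 ± 0.38 and -0.19 ± 0.17, and the coactivators Crtc1, Crtc2 and Crtc3 by -0.08, 0.03 and 0.05. The NR4A receptors, early targets of CREB that bind DNA without a known ligand, differed by -0.15 ± 0.42 (Nr4a1), 0.13 ± 0.35 (Nr4a2) and 0.42 ± 0.40 (Nr4a3). A dimmer probe set of Nr4a3, 1369067_at, read 3.94 and 3.90 at baseline and 5.18 and 6.62 at 1 hour (1.98 ± 0.50, adjusted p = 0.898), below all other 22 arrays at baseline, where the lowest was 4.63. Pkia, an inhibitor of protein kinase A and picked here after its values were seen, read 6.72 and 6.71 at baseline and 8.79 and 9.53 at 1 hour on probe set 1373082_at, a difference of 2.45, and 2.38 on its other probe set 1387398_at, neither called (both adjusted p = 1).

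Cks2, a small subunit of the cyclin-dependent kinases that is needed for cell division, came closest to a call after Sik1. It read 8.06 and 8.09 at baseline and 9.88 and 9.60 at 1 hour. The baseline arrays were the lowest of the study, as the other 20 arrays outside the comparison ran from 8.82 to 11.55. The difference was 1.66 ± 0.24, a fold change of 3.17, with an adjusted p of 0.0512. It was called after quantile normalization (1.72, adjusted p = 0.0109), with a stricter filter on low probe sets (adjusted p = 0.049) and with array weights (adjusted p = 0.0239). A fit of only the compared groups called it too. It was not called with no filter, with robust eBayes and a trend, or with a term for the replicate number. Leaving out any 1 of the compared arrays, the difference ran from 1.52 to 1.81. The remaining cell division genes did not share this difference. Over 29 measured of 36 listed genes the median was 0.11. With 1 gene (Cks2) higher and 0 lower at an unadjusted p under 0.05, the share was 3.45%, against 2.94% of all genes. Pcna, the clamp of the replication fork, differed by 0.47 ± 0.40. The mean level of the list, each gene centred on its mean over all arrays, was 0.18 in both baseline arrays. It was 0.68 and 0.00 at 1 hour, so the 1-hour arrays lay on either side of baseline.

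Several other probe sets shared the pattern of Cks2, with baseline arrays at 1 end of the study, in part against a brighter probe set of the same gene. Dctn6, a subunit of the dynactin complex of microtubule transport, read 4.75 and 4.72 on its dimmer probe set 1396392_at at baseline and 5.95 and 6.17 at 1 hour (1.33 ± 0.23, adjusted p = 0.155), with the lowest other array at 5.29. Its brighter probe set overlapped, with 8.94 and 8.91 against 9.16 and 8.84 (0.08 ± 0.20). The dimmer Fam107b probe set 1382044_at read 4.73 and 4.54 against 6.04 and 6.23 (1.50 ± 0.29, adjusted p = 0.252), and the brighter one overlapped, with 11.58 and 11.81 against 12.03 and 11.80 (0.22 ± 0.21). Traf6, an adaptor that carries signals from interleukin 1 and Toll-like receptors, read 6.80 and 6.56 on probe set 1393809_at against 8.03 and 8.24 (1.46 ± 0.43, adjusted p = 1), and its other 3 probe sets differed by 0.87 to 0.89. The baseline arrays were below all other 22 on each of the 3 probe sets named by number. The phosphodiesterase gene Pde2a, whose enzyme breaks down cyclic nucleotides, had 8.31 and 8.46 at baseline against 9.54 and 9.78 (1.28 ± 0.36). At the upper end lay Cr2, the complement receptor of B cells, with 5.16 and 5.12 against 4.08 and 3.42 on probe set 1381328_at, and Bcl11a, a B cell transcription factor, with 8.78 and 8.75 against 7.89 and 7.26. The differences were -1.39 ± 0.34 and -1.19 ± 0.33. On these probe sets the baseline arrays exceeded the highest other array, at 4.14 for Cr2 and 8.46 for Bcl11a. That did not hold for other Cr2 probe sets. The highest other array was 7.74 on 1385700_at (baseline 6.85 and 7.02) and 6.08 on 1392233_at (5.75 and 5.73). It was 5.35 on 1381327_a_at (5.71 and 5.22). Lilrb2, an inhibitory receptor of myeloid cells, read 9.55 and 9.45 at baseline and 7.56 and 7.21 at 1 hour (-2.11 ± 0.66), against 6.73 to 9.33 elsewhere. The dimmer Capzb probe set 1381494_at, of a protein that caps actin filaments, and the brighter one of Igip differed by -1.10 ± 0.28 and -1.02 ± 0.31 with baseline likewise above all other arrays. The brighter Capzb probe set differed by -0.26 ± 0.19, and its baseline arrays, at 12.05 and 12.17, lay within the range of the others. None of these was called.

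Immediate early genes encode transcription factors and regulators that cells switch on within minutes of a stimulus without new protein synthesis, and handling of blood is known to move them. Of 29 genes listed 27 were measured, with a median difference of -0.01 and a spread from -1.70 to 1.40. At an unadjusted p under 0.05, 5 were higher and 2 lower (25.9%, against 2.94% of all genes), and none was called. Of 3 measured genes of the EGR family, Egr1 and Egr2 were the 2 lower ones, and the corepressor Nab2 differed by -0.30 ± 0.20. Egr1 read 10.91 and 10.87 at baseline, the highest levels of the study, and 9.40 and 8.98 at 1 hour (-1.70 ± 0.43, adjusted p = 0.898), with the other 20 arrays at 7.05 to 10.49. Egr2 had 5.01 and 5.03 against 4.32 and 4.66 (-0.54 ± 0.22). The 5 higher genes were Gadd45b (8.33 and 8.18 against 9.40 and 9.92, 1.40 ± 0.47), Jun (1.09 ± 0.49), Gadd45a (1.06 ± 0.46), Maff (0.84 ± 0.34) and Mafk (0.48 ± 0.22). The GADD45 proteins act in growth arrest and stress signalling, Jun is a subunit of the factor AP-1, and Maff and Mafk are small partners of bZIP factors. Jun rested on replicate 2 in part, as it read 8.94 and 8.99 at baseline and 9.30 and 10.81 at 1 hour. Fos, the partner of Jun, read 12.67 and 12.43 against 11.34 and 12.33 (-0.71 ± 0.50). Dusp6, a phosphatase that inactivates ERK, read 9.12 and 9.13 against 8.09 and 8.10 on its brightest probe set (-1.03 ± 0.54), and its 3 probe sets ran from -1.38 to -1.03. The dimmer ones, 1377064_at (-1.38 ± 0.50) and 1382778_at (-1.09 ± 0.36), passed an unadjusted p under 0.05 without a call. On both, the baseline arrays lay above all other arrays. The nuclear phosphatase Dusp1 differed by -0.08 ± 0.59. The DUSP phosphatases, which switch off MAP kinases, had a median of 0.13 over 7 measured of 10 genes. On the brightest probe set of each gene, Dusp10, which acts on p38 and JNK, was the 1 member past an unadjusted p under 0.05 (14.3%, against 2.94% of all genes). It was higher, with 4.81 and 4.97 against 5.27 and 5.97 (0.73 ± 0.30).

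Transcripts of liver proteins were high in the baseline arrays. Hepatocytes secrete albumin, transthyretin and most apolipoproteins into plasma. Some members of the list are also made elsewhere, as monocytes and macrophages express Apoc1. Of 33 liver genes listed 18 were measured, with a median of -1.45 (-0.75 with no filter on low probe sets), and 17 of the 18 were below 0. At an unadjusted p under 0.05, 11 were lower and 0 higher (61.1%, against 1.4% of all genes in the lower direction). The pairs did not overlap for 15 (83.3%, against 34.8% of all genes). A probe set low in most arrays could pass the filter through the 2 baseline arrays where it was high. The choice of members can therefore raise these shares, which are given as a description only. Albumin (Alb) read 9.82 and 9.87 at baseline and 5.82 and 7.18 at 1 hour (-3.34 ± 1.13, adjusted p = 1). Rup2 read 9.44 and 9.37 against 5.03 and 6.62 on its brightest probe set (-3.58 ± 0.83, adjusted p = 0.651). Apoc1, a protein of lipoprotein particles, read 7.27 and 7.40 against 4.20 and 4.95 (-2.76 ± 0.64, adjusted p = 0.651). In all 3 the baseline arrays were alike and replicate 2 was the higher array at 1 hour.

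Among the plasma carriers and binding proteins, 6 of 7 were lower at an unadjusted p under 0.05, with a median of -1.48. That was 85.7%, against 1.4% of all genes in the lower direction, with the limit given above on the choice of members. The 6 were Alb, Rup2, Gc, the vitamin D carrier (-2.28 ± 0.71), Rbp4, the retinol carrier (-1.48 ± 0.48), Serpina1, an inhibitor of proteases (-1.48 ± 0.60), and Ttr, the thyroxine carrier (-1.42 ± 0.60). Of 5 apolipoproteins 3 were lower (60%), with Apoa2 at -1.59 ± 0.60 and Apoc3 at -1.16 ± 0.41 beside Apoc1, while Apob differed by -0.02 ± 0.25. Of 4 enzymes and intracellular proteins of the liver, the lipid carrier Fabp1 differed by -3.01 ± 1.17 and Hpd of tyrosine breakdown by -2.50 ± 0.82, Cyp2e1 by -1.25 ± 0.65 and Pck1 of gluconeogenesis by -0.04 ± 0.21. The acute phase proteins differed little, with haptoglobin (Hp) at 0.04 ± 0.68 and Orm1 at -0.34 ± 0.59. Rgn and Sult1b1, also enzymes of liver, had -2.70 ± 0.82 and -2.04 ± 0.54. None of these was called.

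High liver transcripts were not particular to the baseline arrays. Alb exceeded 9 in 3 of the 24 arrays, the 2 baseline arrays and ANE at 1 hour replicate 1, where it was 11.33, and reached at most 8.30 elsewhere. The Rup2 probe set 1370396_x_at was high in the same 3 arrays. The mean level of the Liver list, each gene centred on its mean over all arrays, was 1.23 and 1.33 in the baseline arrays. It was -0.57 and 0.11 at 1 hour, and between -0.80 and 2.95 in the other arrays. In a fit that left out the 4 arrays standing apart on the first principal component, of which ANE at 1 hour replicate 1 is 1, 11 of the 18 liver genes were called lower and 125 probe sets in all. In ANE at 1 hour, Alb read 11.33 and 8.21, a gap that enters the common spread. Leaving out that replicate lowers the SE of liver genes, so the calls in that fit are not separate support. The source of the liver transcripts was not tested.

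**Figure D4:**
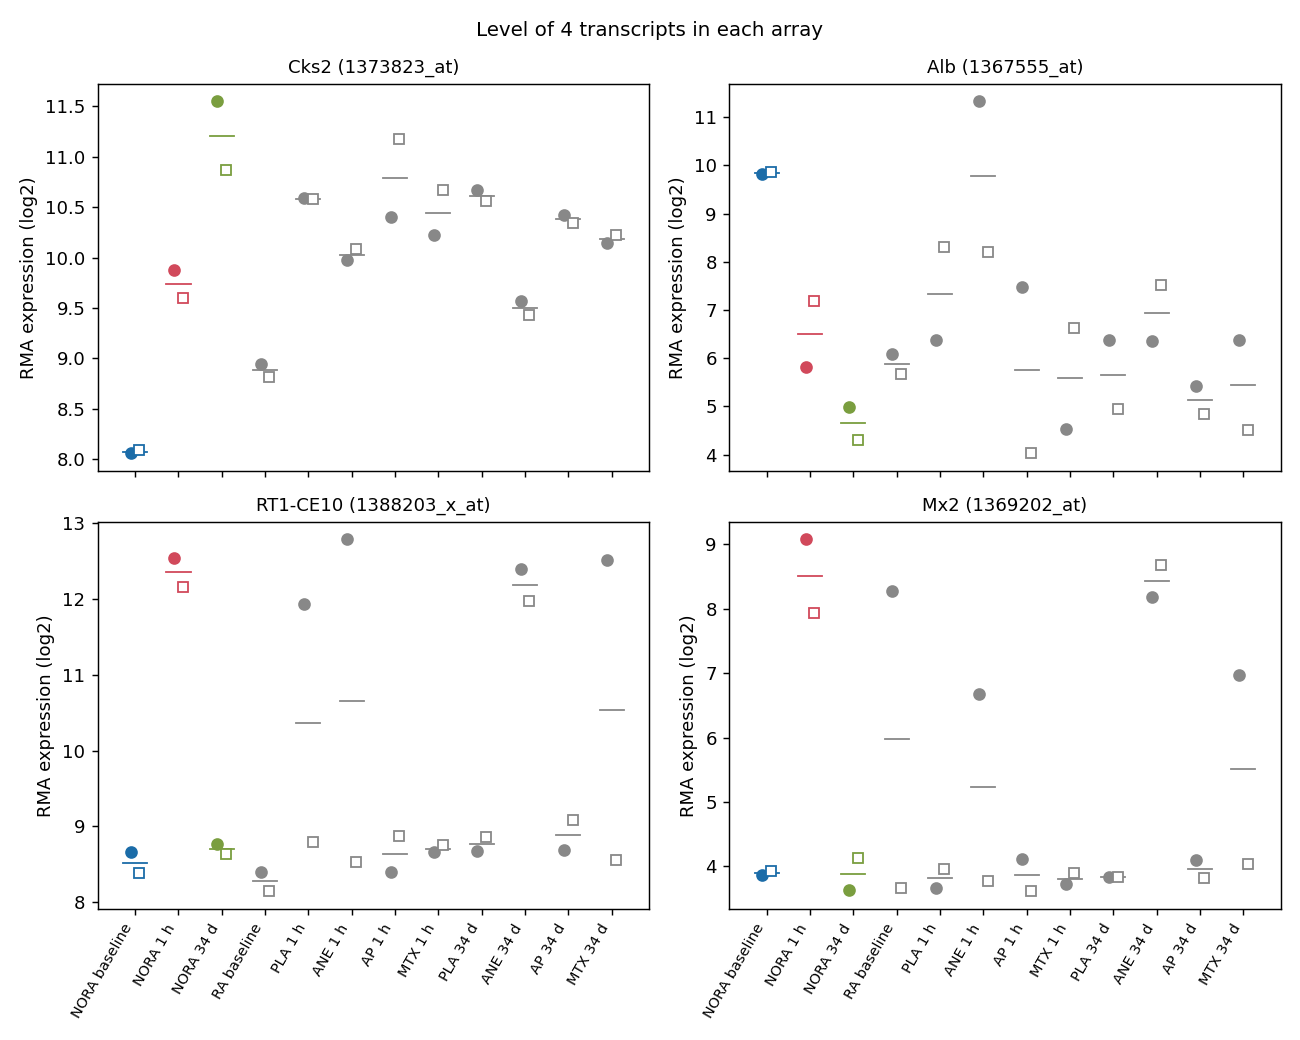
Level (vertical axis, RMA log2) of Cks2, Alb, RT1-CE10 and Mx2 by array and group (horizontal axis, 12 groups), with filled circles for replicate 1, open squares for replicate 2 and bars for the mean. Cks2 is lowest at healthy baseline, Alb is high there and in ANE at 1 hour replicate 1, and RT1-CE10 and Mx2 each take a low and a high level.

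B cell transcripts leaned lower at 1 hour without reaching a call. All 12 measured of 18 listed genes were below 0, with a median of -0.45, and 10 pairs did not overlap (83.3%, against 34.8% of all genes). The list members Cd22 (9.11 and 9.24 against 8.46 and 8.28, -0.81 ± 0.28), the brightest Cr2 probe set (9.0 and 8.94 against 8.17 and 8.13, -0.81 ± 0.33) and Pou2af1 (9.82 and 9.85 against 9.34 and 9.06, -0.64 ± 0.28) passed an unadjusted p under 0.05, 3 of 12 (25%, against 1.4% of all genes in the lower direction). Cd22 and Cr2 are coreceptors of the B cell antigen receptor, and Pou2af1 is a coactivator of B cell transcription. The mean level of the list was 0.60 and 0.64 at baseline, near the top of the other arrays (-0.94 to 0.63). It was 0.20 and 0.13 at 1 hour. In RNA from whole cell preparations, fewer B cells and less RNA per B cell cannot be told apart. Ciita, the master regulator of MHC class II genes, read 8.26 and 8.15 against 7.60 and 7.51 (-0.65 ± 0.29), while the 8 measured MHC class II genes had a median of -0.12. Plasma cell genes had a median of 0.03 over 6 genes.

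Among the other blood cell lists, NK and cytotoxic and Erythroid differed mainly between the 2 arrays at 1 hour. The NK and cytotoxic list of killer receptors and granule proteins had mean levels of 0.41 and 0.31 at baseline and of 1.17 and -0.44 at 1 hour. Granzyme B (Gzmb) read 10.72 and 10.58 at baseline and 11.50 and 9.29 at 1 hour, so that the 1-hour arrays lay on both sides. The median difference over its 17 genes was 0.06, and it was -0.73 without 1-hour replicate 1 and 0.85 without replicate 2. The Erythroid list, with a median of 0.28 over 22 genes, gave 0.66 and -0.27 in the same way. T cell genes had a median of -0.13 over 21 genes, monocyte genes -0.14 over 18, platelet genes -0.10 over 23 and mast cell and basophil genes 0.37 over 7, and 0 genes of these lists passed an unadjusted p under 0.05.

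Inflammatory genes were higher at 1 hour on average, again with no call. Of 42 listed genes 35 were measured, the median was 0.46 and 27 were above 0. At an unadjusted p under 0.05, 6 were higher and 0 lower (17.1%, against 1.54% of all genes in the higher direction). The cytokine Tnf read 5.50 and 5.81 at baseline and 9.19 and 6.86 at 1 hour (2.37 ± 0.75), and its other probe set differed by 0.21. Il18, which induces interferon gamma, read 7.25 and 7.05 against 8.58 and 8.62 (1.45 ± 0.40), the closest agreement of any 1-hour pair among the 6. The chemokine Ccl3 had 10.29 and 10.23 against 11.63 and 11.46 (1.29 ± 0.42). The remaining 3 were Il10, a cytokine that restrains inflammation (1.42 ± 0.57), Ccrl2, a receptor that presents the chemoattractant chemerin (1.89 ± 0.87), and Il1r2, the decoy receptor of interleukin 1 (6.64 and 6.33 against 8.33 and 10.43, 2.90 ± 1.35). Interleukin 1 beta (Il1b) differed by 1.17 ± 1.04, Cxcl2 by 0.53 ± 0.88, Cxcl1 by 0.46 ± 1.02 and the prostaglandin synthase Ptgs2 by 0.52 ± 0.95, and none of these 4 passed an unadjusted p under 0.05. The pairs of Il1b and Cxcl2 did not overlap, with Il1b at 10.21 and 10.17 against 11.62 and 11.10. The subunits and inhibitors of NF-kB, the factor that drives these genes, had a median of 0.10 over 8 genes. The list median was 0.30 without baseline replicate 2.

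Of 19 listed neutrophil genes 11 were measured, and 2 were higher and 0 lower at an unadjusted p under 0.05 (18.2%, against 1.54% of all genes in the higher direction), with no call. The median was 0.70, and it was 0.26 without 1-hour replicate 2. Their mean level was -0.59 and -0.79 at baseline, -0.44 and 0.56 at 1 hour, and -1.32 to 1.88 in the other arrays. The calprotectin genes S100a8 and S100a9, abundant in neutrophils, read 10.47 and 10.13 against 10.56 and 12.03, and 12.28 and 11.99 against 12.42 and 13.37. Neither passed an unadjusted p under 0.05. The 2 that did were Il1r2, also on the inflammatory list, and the gelatinase gene Mmp9, which read 6.32 and 6.23 against 7.10 and 7.16 (0.86 ± 0.28). Outside this list, Siglec5, a sialic acid receptor of myeloid cells, read 3.66 and 3.85 against 6.49 and 7.89 (3.43 ± 0.90, adjusted p = 0.95). It was high in both MTX arrays at 1 hour (7.14 and 6.54). Some pairs were far apart, with 3.47 and 6.65 in NORA at 34 days and 4.97 and 7.75 in PLA at 1 hour. In ANE at 1 hour Siglec5 was alike, at 4.47 and 4.60, while S100a8 read 8.42 and 13.22. The part of neutrophils in the values of the inflammatory genes was not tested.

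**Figure D5:**
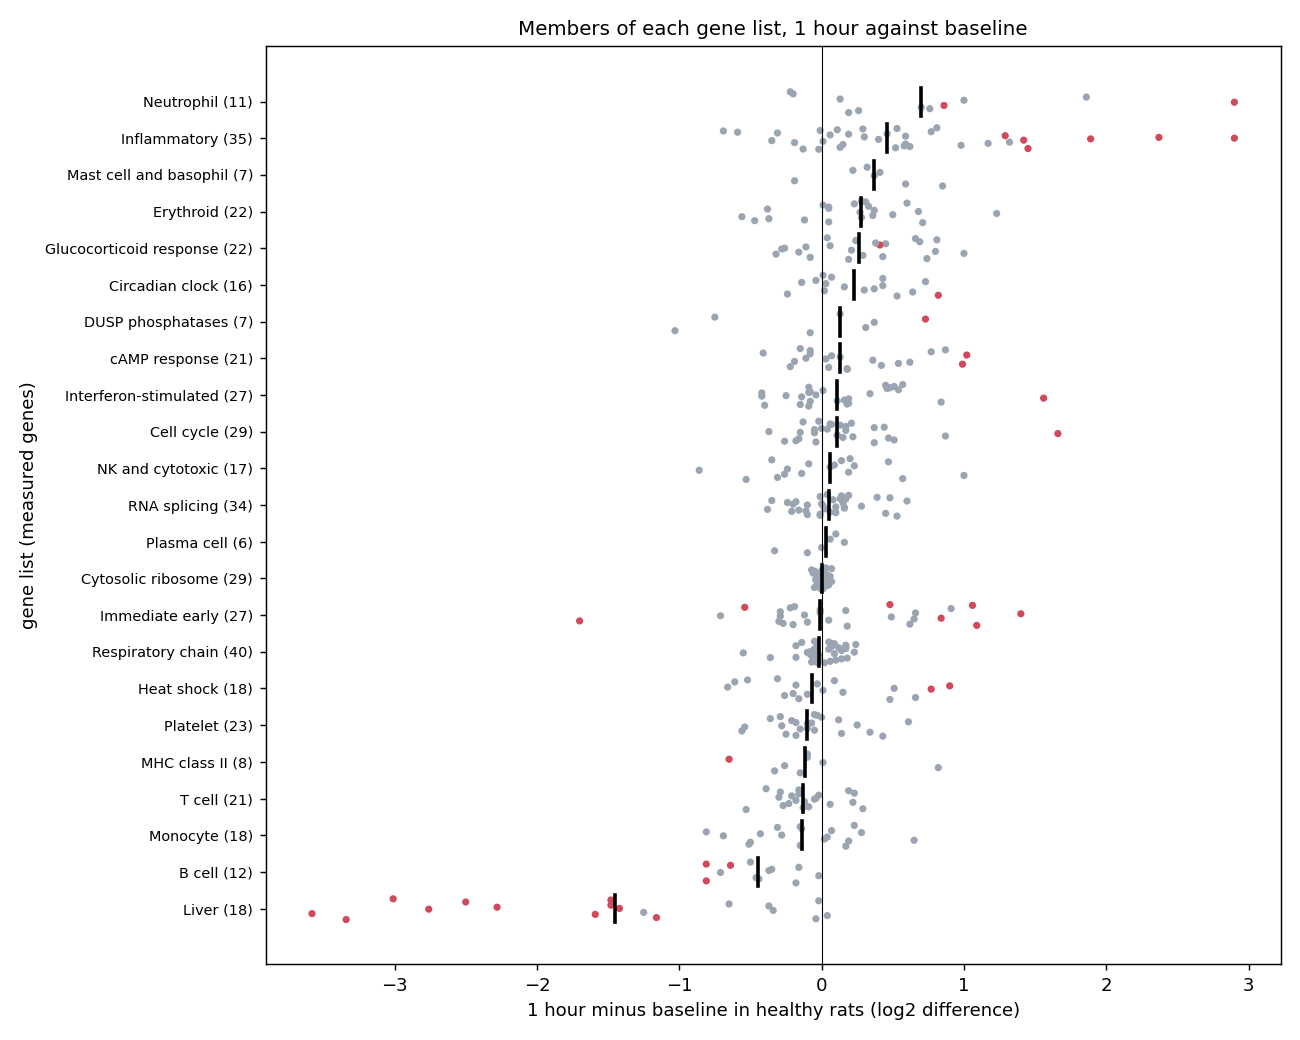
Difference of 1 hour minus baseline in healthy rats (horizontal axis, log2) for every measured gene of 23 lists (vertical axis, with the number of genes). Red points have an unadjusted p under 0.05, and the black bar is the median, which runs from -1.45 for Liver to 0.70 for Neutrophil.

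Clock genes, whose proteins form the feedback loop that keeps daily time in every tissue, had a median of 0.23 over 16 measured of 20 genes, and 13 were above 0. The pairs did not overlap for 8, all higher (50%, against 34.8% of all genes). On the brightest probe set of each gene, Per3, of the period family that represses the loop, was the 1 gene with an unadjusted p under 0.05 (6.25%, against 2.94% of all genes). It read 5.95 and 5.62 at baseline, below all other 22 arrays, and 6.49 and 6.72 at 1 hour (0.82 ± 0.25, adjusted p = 1). Per1 differed by 0.43 ± 0.37, Per2 by 0.16 ± 0.17 and Cry1 by 0.43 ± 0.28. Nr1d2, a nuclear receptor of the second loop, read 8.20 and 8.35 against 8.73 and 9.09 (0.64 ± 0.34), and its 3 probe sets ran from 0.19 to 1.04. The highest, on the dimmer probe set 1370541_at (1.04 ± 0.38), passed an unadjusted p under 0.05 without a call. The activators Clock and Bmal1 differed by 0.07 ± 0.36 and 0.02 ± 0.33, and the output gene Dbp by -0.04 ± 0.28. The clock time of the samplings is not given in the sources used here.

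Genes switched on by glucocorticoids, the stress hormones of the adrenal, had a median of 0.26 over 22 measured of 25 genes, and 0.14 without 1-hour replicate 2. On the brightest probe set of each gene, the metallothionein Mt1 alone passed an unadjusted p under 0.05 (4.55%, against 2.94% of all genes). It read 5.26 and 5.63 against 5.62 and 6.09 (0.41 ± 0.19). The cochaperone Fkbp5 read 8.35 and 8.29 against 9.26 and 8.69 (0.66 ± 0.40), whereas Tsc22d3, which mediates much of the hormone's effect on immune cells, differed by 0.04 ± 0.28. Klf9 read 11.30 and 11.45 against 12.04 and 12.17 (0.74 ± 0.41). Its dimmer probe set, and a related factor, Klf11, differed by 1.16 and, on probe set 1379914_at, 1.29 ± 0.33. Both passed an unadjusted p under 0.05, and neither was called.

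The heat shock list had 18 measured genes, 2 of them cold-inducible, and its median was -0.07. At an unadjusted p under 0.05, 2 were higher and 0 lower (11.1%, against 1.54% of all genes in the higher direction). Of those 2, 1 is a cold-inducible gene. Dnajb1, a partner of the chaperone HSP70, read 8.72 and 8.52 against 9.47 and 9.31 (0.77 ± 0.22), while its dimmer probe set differed by 0.07. The cold-inducible RNA-binding protein gene Cirbp read 8.56 and 8.61 against 9.31 and 9.66 (0.90 ± 0.32), and its 3 probe sets ran from 0.38 to 0.90. Hsp90b1, the chaperone of the endoplasmic reticulum, differed by -0.66 ± 0.36 and Hsph1 by -0.52 ± 0.30. The core machinery of the cell stayed near 0. The 34 splicing genes had a median of 0.05 and the 40 respiratory chain genes -0.02, and the 29 genes of the cytosolic ribosome ran from -0.07 to 0.07. In these 3 lists 0 genes passed an unadjusted p under 0.05.

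A few immune genes took either a low or a high level over the 24 arrays and lay on different sides at the 2 sampling times. The class I MHC transcript RT1-CE10 read 8.66 and 8.38 at baseline and 12.55 and 12.16 at 1 hour (3.84 ± 1.20, adjusted p = 1). It was high, between 11.94 and 12.79, in 7 arrays of 5 groups and low, between 8.14 and 9.08, in 17. The 7 arrays were both at NORA 1 hour, both at ANE 34 days, and replicate 1 of ANE at 1 hour, PLA at 1 hour and MTX at 34 days. RT1-CE16 (6.88 and 6.73 against 10.13 and 9.73) and RT1-CE12 (11.97 and 11.96 against 13.45 and 13.28) were high in the same 7 arrays. Class I genes of the rat form a family of near-identical copies, so these 3 probe sets may read shared or neighbouring transcripts and are not separate evidence. Mx2, an antiviral GTPase induced by interferon, read 3.87 and 3.93 at baseline and 9.08 and 7.94 at 1 hour on probe set 1369202_at (4.61 ± 1.15, adjusted p = 0.898), the largest difference of a named probe set. It too was high in 7 arrays, of which 6 were among the 7 above, with RA baseline replicate 1 in place of PLA at 1 hour replicate 1, and its other probe set differed by 0.19. The interferon list, which holds Mx2 by that other, brighter probe set, had a median of 0.11 over 27 genes. The median was -0.35 without 1-hour replicate 1 and 0.37 without replicate 2. Mean levels of the list were 0.09 and 0.15 at baseline and 0.62 and -0.06 at 1 hour. Of its 27 genes, on their brightest probe sets, Oas1b alone passed an unadjusted p under 0.05 (3.7%, against 2.94% of all genes). Oas1b read 2.83 and 3.57 against 5.42 and 4.09 (1.56 ± 0.56). Because each rat was measured at 1 time, a difference between rats and a difference between times cannot be told apart here. The RT1 transcripts were picked after their values were seen.

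The 1-hour change in healthy rats was then tested against that in rats with arthritis. PLA and ANE have no baseline of their own, so RA at baseline stands for it. Both tests hold the NORA arrays compared above and the same RA baseline arrays. A call of Sik1 in them is therefore not separate from the call above. Against PLA, 1 of 20690 probe sets differed (0.00483%), which was Sik1. The PLA arrays at 1 hour read 5.33 and 5.38 and the RA baseline arrays 5.31 and 5.18, a change of 0.11 beside -3.42 in NORA, and the difference between the changes was -3.54 ± 0.28 (adjusted p = 2.42e-05). Sik1 was thus low at baseline in RA, and at 1 hour in both. Cks2 did not separate the changes, with 1.66 in NORA and 1.71 in PLA, a difference of -0.04 ± 0.35. The chemokine Cxcl1 differed by 0.46 in NORA and by 5.82 in PLA, which was not called either. Its levels at 1 hour were 9.65 and 10.90 in NORA and 9.92 and 11.64 in PLA. The gap lay at baseline, with 10.06 and 9.57 in NORA and 5.86 and 4.07 in RA.

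Against ANE, 11 probe sets differed (0.0532%), with the change higher in NORA for 2 (0.00967%) and lower for 9 (0.0435%). Besides Sik1 (-3.55 ± 0.28, adjusted p = 2.32e-05), the change was lower in NORA for the liver transcripts Sult1b1 (-6.23 ± 0.76, adjusted p = 0.00491), Rup2 on probe sets 1370396_x_at and 1389270_x_at (-8.41 ± 1.22 and -7.89 ± 1.18) and Apoc1 (-5.52 ± 0.91), and for Osgin1, Pck1 and Fmo5. For Apoc1 the changes were -2.76 in NORA and 2.76 in ANE, where the arrays read 8.73 and 5.54. Osgin1, an oxidative stress gene, had -0.10 in NORA and 1.68 in ANE, and Pck1 by -0.04 and 2.01. The dimmer Dctn6 probe set had 1.33 in NORA and -0.67 in ANE, a difference of 1.99 ± 0.33 (adjusted p = 0.0397), whereas the brighter one had 0.08 and -0.22, a difference of 0.30 ± 0.29 that was not called. These counts depended on single arrays: they were 51 without ANE at 1 hour replicate 1, 74 without replicate 2, and between 1 and 7 without any 1 of the NORA or RA baseline arrays.

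The healthy rats at 34 days were compared with the same baseline arrays, so the 2 comparisons share them and their values are set side by side only. At 34 days 2478 probe sets were called (12%), against 1 at 1 hour. Sik1 was lower by 3.63 there, at 5.03 and 5.25, next to 3.42 at 1 hour. Cks2 was higher by 3.14 at 34 days (11.55 and 10.87) and by 1.66 at 1 hour. The Liver list had a median of -1.63 at 34 days and -1.45 at 1 hour, the B cell list -1.26 and -0.45, and the clock list 0.95 and 0.23. Pou2af1 was lower by 2.62 at 34 days (limma, adjusted p = 0.00019) and had -0.64 at 1 hour. Per1, Per2 and Nr1d2 were called at 34 days, with 1.41, 1.04 and 1.67, while Dbp differed by -0.12. Mx2 differed by -0.02 and Tfpi, an inhibitor of clotting that had 1.03 ± 0.21 at 1 hour, by -0.28.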

How the data were processed

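Rat PBMC were isolated on Ficoll, stored, and extracted as 1 batch. The deposited table holds log2 values that, per the labels, the authors made with RMA in the affy package (versions not given in the sources used here). Array medians ran from 5.49 to 5.58. Samples were grouped by title. Genes are named from probe sets with 1 symbol in the platform annotation (20832 of 31099). Control probe sets (57) were dropped. A probe set also had to exceed the 40th percentile of its array on 2 or more arrays, which left 20690.

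Comparisons used limma 3.58.1 (R 4.3.3) fitted to all 24 arrays with 1 term for each group, 12 residual degrees of freedom and Benjamini-Hochberg adjustment, and the steps were tested on simulated data. With 2 arrays in each group the smallest two-sided p of an exact permutation test is 0.333. The limma p-values therefore draw on the spread within all groups together, and the number of arrays limits the precision. Lists used the brightest probe set of a gene. Named genes were the 12 highest and 12 lowest with 1 symbol and groups apart, filled by the moderated statistic from those past the thresholds of the study, up to 5 members of each list, 5 in each direction of the other comparisons, and genes chosen by name. Members and lists were chosen with earlier results of these data known. Promoters came from RefSeq (GRCr8). The alternatives tried were other filters, array weights, quantile normalization, robust eBayes with a trend, the replicate block, fitting the compared groups alone, and leaving arrays out. Python 3.11.15, pandas 2.3.3 and matplotlib 3.10.9 made the tables and plots.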

Additional observations from a re-analysis of the deposited data

Results flagged for a closer look

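These transcripts are listed because the 1-hour change in NORA differed from that in another arm in the limma fit. Against PLA it was Sik1 (-3.54). Against ANE they were Sik1 (-3.55), Sult1b1 (-6.23), Rup2 on 2 probe sets (-8.41 and -7.89), Apoc1 (-5.52), Fmo5 (-2.17), Pck1 (-2.04), Osgin1 (-1.79) and the unnamed probe set 1368304_at (-2.41), each lower in NORA, and Dctn6 on its dimmer probe set (1.99) and the unnamed probe set 1382804_at (1.88), each higher. In ANE at 1 hour, Sult1b1 read 8.79 and 5.96 and the Rup2 probe set 1370396_x_at 10.58 and 7.11, with replicate 1 the higher array. Osgin1 was alike in the ANE arrays, at 8.09 and 8.03. For Sik1 the difference lay in the NORA baseline arrays, at 8.74 and 8.81, as RA at baseline read 5.31 and 5.18.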

How the results depend on the processing

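The call of Sik1 held under each alternative, from -3.51 to -3.34. The number of probe sets called at 1 hour was 1 and became 7 with array weights, 47 with only the compared groups fitted, 3 after quantile normalization, 2 with the stricter filter and 125 without the 4 arrays standing apart, and it ran from 1 to 3 leaving out 1 array. The 145 past the thresholds of the study ran from 99 to 447 leaving out 1 array, the highest without 1-hour replicate 1. The replicate numbers did not pair the arrays (correlation of deviations -0.05766), and with the replicate block the counts were 1 and 152. The difference from PLA gave 6 with only the compared groups fitted, and 1 to 2 leaving out 1 array. The 11 that differed from ANE became 64 with array weights, 1 with only the compared groups and 6 with the stricter filter, and 1 to 74 leaving out 1 array. The 2478 at 34 days became 7109 with array weights, 6995 with only the compared groups and 6298 without the 4 arrays, and 638 to 1258 leaving out 1 array. The causes were not tested. Of 161 alternative list medians, 26 moved by more than the spread between replicates. The Liver median was -0.75 without a filter, and the Inflammatory median 0.29 over all probe sets of a gene.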
